A study of Mus musculus with 8 samples.

Results

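A set of 33 genes known to be induced by type I interferon was followed in RNA from cells collected as macrophages from mouse inguinal fat pads. The genes were fixed by name, each was matched through its Ensembl identifier to 1 of the 56748 rows of the deposited count table, and all 33 had a row. The Aldara group holds 4 libraries from wild-type female mice that received about 62.5 mg of Aldara, a cream with 5% imiquimod, on shaved back skin near the tail on each of 3 days. The Vehicle group holds 4 libraries from wild-type female mice given the same volume of Boots Aqueous Cream/10% Vaseline Lanette Cream on the same days, so any constituent of Aldara that this cream lacks cannot be told apart from imiquimod. All mice were killed 24 h after the last dose. Each library was made from cells bound by F4/80 beads from 6 pooled fat pads, about 30000 cells, where flow cytometry had counted more than 90% of cells as F4/80+CD64+. The sources used here give neither age nor strain, nor whether the pools of a group came from separate experiments, so the p-values measure only the spread between these pools.

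Type I interferons are secreted proteins that bind a receptor of the chains Ifnar1 and Ifnar2, which activates the kinases Jak1 and Tyk2. These phosphorylate signal transducers, Stat2 among them, and Stat2 acts with Irf9 in the complex ISGF3. That complex binds the interferon-stimulated response element upstream of its target genes, whose products sense foreign nucleic acid, block viral replication, modify proteins with ISG15 or feed back on the signal. Imiquimod is an agonist of Toll-like receptor 7, an endosomal receptor for RNA whose signalling can lead to interferon production in some cell types.

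The Vehicle libraries held 21874780 to 34471508 counts and the Aldara libraries 19537607 to 24340674. Levels are given as CPM, counts scaled to a common library total with trimmed mean of M values (TMM) factors. All 33 genes were detected in every library, with at least 48 counts, so depth did not limit their detection. The makeup of the libraries differed between the groups. Summed over 15 macrophage markers the level was 1957 to 3800 CPM in the Vehicle libraries and 4303 to 11010 CPM in Aldara, with 9 markers risen, 0 fallen (0 also at an unadjusted p under 0.05 and in DESeq2) and a median log2 fold change of 1.38. The count of risen macrophage markers was 14 with DESeq2, the replicate block or without Aldara replicate 1. It was 4 without the filter or without Aldara replicate 4, and 5 without Aldara replicate 3 or without 1 of Vehicle replicates 1, 2 and 4. Adgre1, which encodes F4/80 itself, spanned 53.4 to 96.8 CPM over the Vehicle libraries and 429 to 1413 CPM over the Aldara libraries. Fcgr1, which encodes CD64, the other marker of the purity count, did not pass with edgeR (adjusted p = 0.4357). It also did not pass with DESeq2 (0.3984) or the replicate block (0.4735). The 12 epithelial markers summed to 11230 to 15760 CPM in the Vehicle libraries and 11550 to 14710 CPM in Aldara, with 0 called by the main edgeR fit in either direction (1 lower at an unadjusted p under 0.05, 1 lower in DESeq2, and 1 higher and 1 lower with the replicate block). Epithelial transcripts were thus present in every library of a preparation labelled as macrophages. Of 7 fibroblast markers 6 fell, and their sum went from between 209.9 and 573.7 CPM to between 67.8 and 140.6 CPM. The falls numbered 2 without Aldara replicate 2, 3 without Vehicle replicate 2 or any of the other Aldara libraries, 4 without Vehicle replicate 1 and 3 without the filter. Markers of monocytes (1 of 6 tested rose, 2 fell), plasmacytoid dendritic cells (0 and 1 of 3), dendritic cells (0 and 1 of 5), neutrophils (2 and 0 of 2), B cells (2 and 0 of 2), endothelium (0 and 0 of 7), adipocytes (2 and 0 of 6) and T and NK cells (0 and 0 of 1) were at lower sums than epithelium in all libraries. With 1 library left out the monocyte markers that fell numbered 1 to 3, the neutrophil markers that rose 1 to 3 and the adipocyte markers that rose 1 to 3. With the replicate block 1 plasmacytoid marker rose and 2 fell. Siglech, the plasmacytoid marker that fell, went from between 2.18 and 5.39 CPM to between 0.717 and 1.19 CPM. Ly6g, which defines neutrophils, had 0 counts in all 8 libraries, and Cd3e had at most 2 counts in each. Other markers of these cells were scarce but uneven between the groups. S100a9 had 0 counts in Vehicle and 41 in Aldara, with counts in all 4 Aldara libraries, and S100a8 had 10 and 46 (adjusted p = 0.00435 with DESeq2). The NK cell genes Ncr1 and Klrb1c had 0 counts in Vehicle and 18 and 16 in Aldara. Without the filter the adjusted p was 0.00211 for S100a9, 0.0179 for S100a8, 0.0277 for Ncr1 and 0.0484 for Klrb1c, and 1 T and NK gene of 8 passed the filter. In bulk RNA, fewer cells of a type and less RNA per cell cannot be told apart, and the part of this shift in the results that follow was not tested.

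Most of the interferon-stimulated genes did not pass the test, and more of them rose than fell. Of the 33 genes 8 rose with Aldara, which is 24.2% of them, beside 6.98% of the 16780 genes tested. Only Ifit2 fell, which is 3.03% of the 33, beside 3.86% of all genes tested. The genes that rose were Rtp4, Ifit1, Parp14, Ifi44, Xaf1, Ddx58, Eif2ak2 and Ifih1. No member changed by as much as 1 on the log2 scale, beside 6.47% of all tested genes. That share of 33 genes would be few, so a count of 0 lies near it. Log2 fold changes of the 33 genes ran from −0.71 for Oas3 to 0.69 for Rtp4, with a median of 0.27 beside 0.01 over all tested genes. Their middle 50% lay between −0.07 and 0.48, beside −0.19 and 0.20 for all genes. The estimate was above 0 for 22 members and below 0 for 11. The 4 Aldara libraries lay above the 4 Vehicle libraries for 8 members (24.2%, beside 9.97% of all genes tested) and below them for 3 (9.09%, beside 7.79%), which were Ifit2, Oas3 and Zbp1. Since the 33 genes were chosen with earlier results of these data known, these shares are a description.

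The rising and falling calls on Ddx58, Eif2ak2, Ifit1, Parp14, Rtp4 and Ifit2 held in all 14 alternative analyses. Without Aldara replicate 3 only 5 members rose, beside 3.85% of all genes tested in that fit. The call on Ifih1 was lost without Vehicle replicate 1 (adjusted p = 0.0546), Aldara replicate 2 (0.0656) or Aldara replicate 3 (0.0522), and that on Ifi44 without Aldara replicate 2 (0.0514), 3 (0.0595) or 4 (0.0534). The call on Xaf1 was lost with upper-quartile scaling (0.0525), without Vehicle replicate 1 (0.0774), 2 (0.0878) or 4 (0.0767), and without Aldara replicate 1 (0.0551), 3 (0.0686) or 4 (0.102). Over all tested genes 1171 rose and 647 fell under TMM (64.4% rising), whereas 979 rose and 990 fell with upper-quartile scaling (49.7% rising) and 1030 fell with the replicate block.

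**Figure D1:**
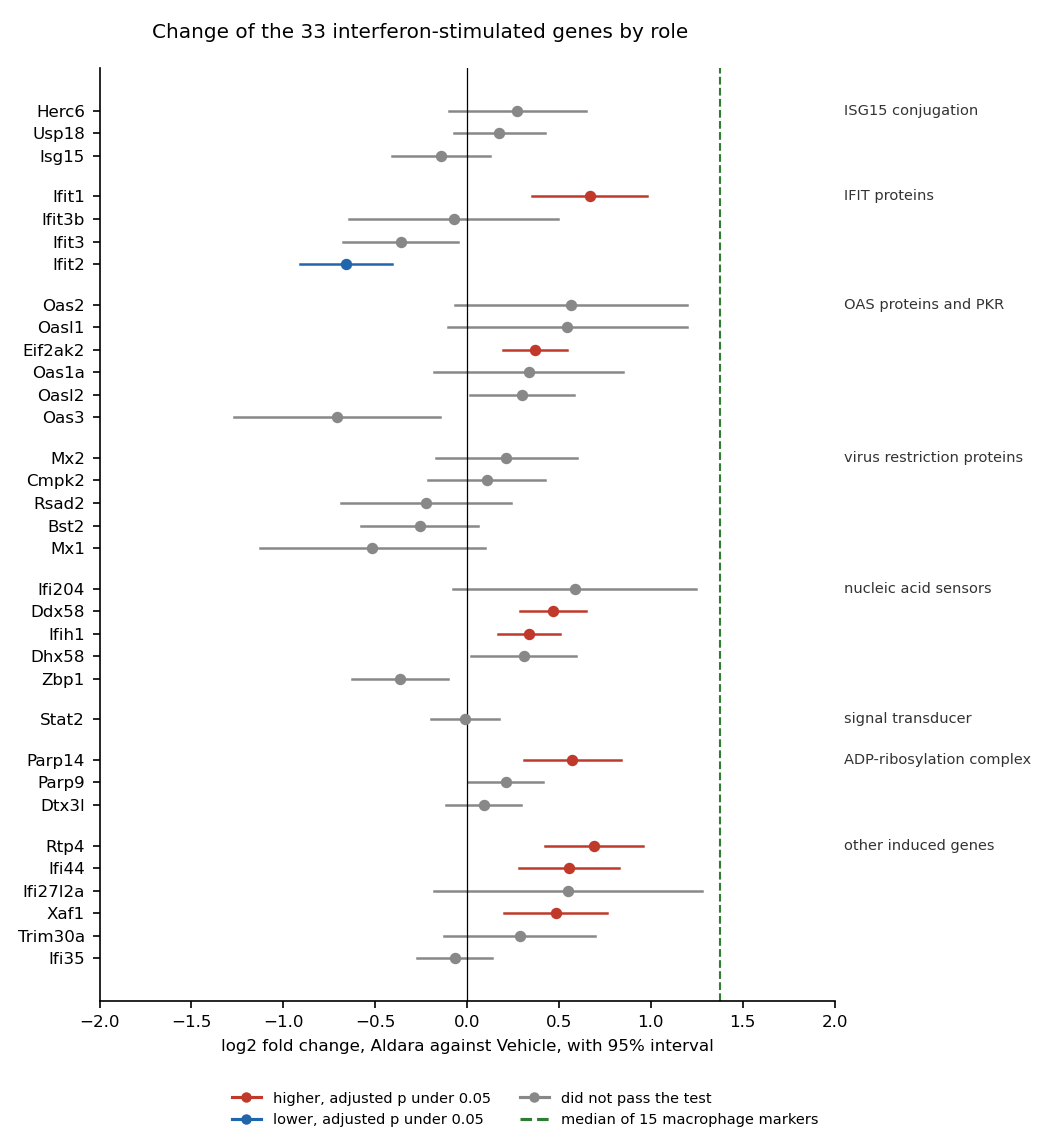
Log2 fold change of each of the 33 genes (x axis, Aldara against Vehicle, with its 95% interval) grouped by role, coloured by the edgeR call, with a dashed line at the median of 15 macrophage markers (1.38). Every estimate lies between −0.71 and 0.69, left of the dashed line, and 6 of the 8 roles hold members on both sides of 0.

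The IFIT proteins bind foreign RNA and hinder its translation, and the genes of the set that encode them lie close together on chromosome 19 (GRCm38, GENCODE M21). In order these members are Ifit2 (chr19:34550694-34576419), Ifit3 (chr19:34583531-34588731), Ifit3b (chr19:34607970-34613401) and Ifit1 (chr19:34640871-34650009), all on the plus strand. The outer members, Ifit2 and Ifit1, changed in opposite directions. Ifit1 measured 13.7, 13.8, 10.0 and 13.2 CPM in Vehicle replicates 1 to 4 and 21.9, 16.0, 21.2 and 21.1 CPM in Aldara replicates 1 to 4. Its lowest Aldara library lay 16.1% above its highest Vehicle library, and it rose by a log2 fold change of 0.67 (SE 0.14, adjusted p = 0.0146).

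Ifit2 measured 19.9, 22.4, 17.5 and 21.4 CPM in the Vehicle libraries and 12.3, 12.03, 12.9 and 14.3 CPM in Aldara. All Aldara libraries were below all Vehicle libraries, and the gene fell by 0.66 on the log2 scale (SE 0.11, adjusted p = 0.00627). The ratio of Ifit1 counts to Ifit2 counts does not depend on how libraries are scaled. It was 0.687, 0.615, 0.571 and 0.617 in the Vehicle libraries and 1.78, 1.33, 1.65 and 1.48 in the Aldara libraries, so in each Vehicle library Ifit2 had more counts and in each Aldara library Ifit1 did. The pair was picked after its values were seen, so the ratio is given without a test.

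Ifit3 measured 15.9, 14.03, 14.5 and 17.8 CPM in the Vehicle libraries and 10.3, 11.1, 12.1 and 15.01 CPM in Aldara. The groups overlapped through Aldara replicate 4, and the log2 fold change of −0.36 (SE 0.14) did not pass the test (adjusted p = 0.131). Ifit3b, a close copy of Ifit3, was at 2.46 to 4.40 CPM in the Vehicle libraries and 1.91 to 3.66 CPM in Aldara (adjusted p = 0.9). Of all 100-base stretches in the transcripts of Ifit3, 31.7% occur unchanged in those of Ifit3b, and 27.4% of those of Ifit3b occur in Ifit3. How the counting treated reads that match both is not stated in the labels or notes, so the split between them is uncertain. Of the Ifit1 stretches 3.29% are shared with another gene, and of the Ifit2 stretches 0.

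**Figure D2:**
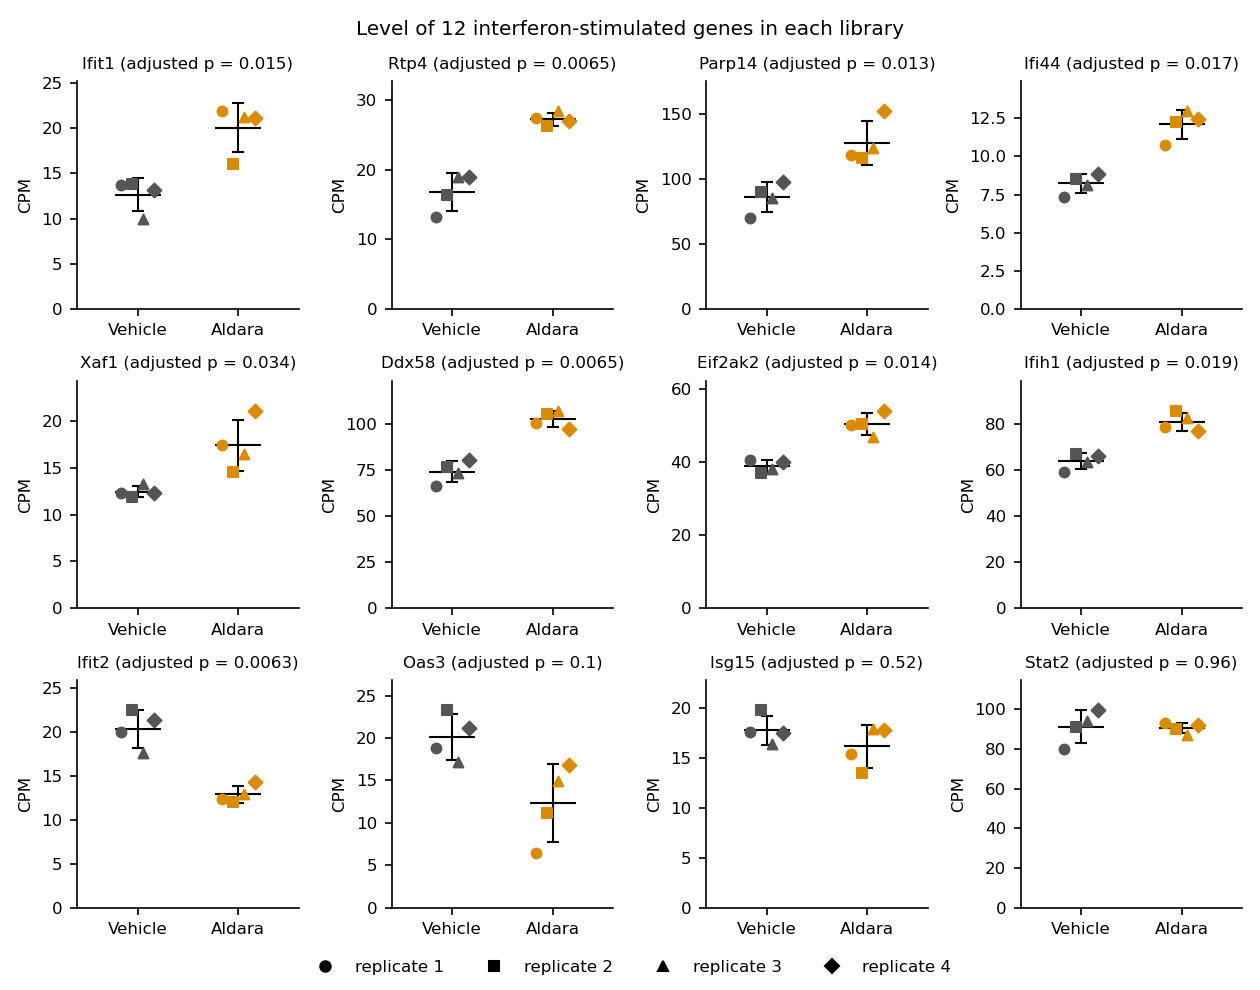
CPM (y axis, from 0) of 12 genes in each of the 8 libraries, with the mean and SD of the 4 libraries of a group as bars and 1 marker shape per replicate number. The 8 genes that rose and Ifit2 show groups that do not overlap, Oas3 shows wide Aldara libraries (6.45 to 16.9 CPM), and Isg15 and Stat2 overlap.

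The stretches upstream of the start sites of 5 members are printed as examples that hold the letters of the response element. Of these Ifit1 rose and the other 4 genes did not pass the test. Oas1a, Bst2, Rsad2 and Trim30a also hold these letters in the same stretch and are not printed. They come from RefSeq (GRCm38.p6), 200 bases up to the base before the start, 5′ to 3′ on the gene's strand, and capitals mark every match to the core of the interferon-stimulated response element, GAAA followed after any 2 bases by a second GAAA, or to its reverse complement.
Ifit1, chr19:34640689-34640888, plus strand: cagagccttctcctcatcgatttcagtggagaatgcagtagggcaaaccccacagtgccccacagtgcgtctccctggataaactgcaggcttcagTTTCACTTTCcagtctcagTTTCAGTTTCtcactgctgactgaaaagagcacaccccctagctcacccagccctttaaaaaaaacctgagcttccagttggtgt
Ifit3, chr19:34583329-34583528, plus strand: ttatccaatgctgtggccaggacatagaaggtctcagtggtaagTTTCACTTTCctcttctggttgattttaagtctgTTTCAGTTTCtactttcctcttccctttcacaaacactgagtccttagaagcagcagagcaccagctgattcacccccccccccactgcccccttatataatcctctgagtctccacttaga
Ifit3b, chr19:34607757-34607956, plus strand: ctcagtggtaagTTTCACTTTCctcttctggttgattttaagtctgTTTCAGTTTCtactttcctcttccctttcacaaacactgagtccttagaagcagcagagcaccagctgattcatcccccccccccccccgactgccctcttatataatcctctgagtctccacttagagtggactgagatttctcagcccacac
Isg15, chr4:156200819-156201018, minus strand: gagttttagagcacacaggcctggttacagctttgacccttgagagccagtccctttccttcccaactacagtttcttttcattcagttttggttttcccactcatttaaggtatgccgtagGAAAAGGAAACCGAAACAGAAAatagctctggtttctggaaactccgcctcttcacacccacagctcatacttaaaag
Oas3, chr5:120777660-120777859, minus strand: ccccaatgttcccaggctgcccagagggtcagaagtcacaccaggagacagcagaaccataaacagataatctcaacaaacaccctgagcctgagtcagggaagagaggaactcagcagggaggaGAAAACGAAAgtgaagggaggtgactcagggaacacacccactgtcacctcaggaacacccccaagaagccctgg
Ifit1, Ifit3 and Ifit3b each hold 2 separate matches. Isg15 holds 3 overlapping matches and Oas3 holds 1.

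RefSeq promoter windows, from 250 bases before the start to 50 after it, were found for 22 of the 33 members. The core was searched on both strands, and so was its longer form, in which CT follows the second GAAA. At least 1 core match stood in 13 of the 22 members, beside 3.98% of 26994 genes with such windows, and the longer form in 7 of the 22 beside 0.304%. Among members that rose 4 of 6 held a core match (Ifit1, Eif2ak2, Ifih1 and Ddx58), and among members that did not pass the test 9 of 15. The matches of Eif2ak2, Ifih1 and Ddx58 lay after the start (first base at 18, 32 and 2 relative to it). Of these 4 risen genes only Ifit1 held a match upstream, whereas all 9 that did not pass held one before the start. Both windows of Ifit2 held none, which says only that the letters are not in those windows. TTCNNNGAA, the letters of the gamma-activated site, stood in 5 of 22 members beside 9.55% of genes.

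The 3 ISG15 conjugation genes of the set did not pass the test, and their groups overlapped. Uba7, which encodes the activating enzyme for ISG15 and is outside the set, rose and is described below with the feedback genes. Isg15, a ubiquitin-like protein attached to other proteins after interferon, measured 17.6, 19.8, 16.4 and 17.5 CPM in the Vehicle libraries and 15.5, 13.5, 18.0 and 17.8 CPM in Aldara. The groups overlapped, and the interval of the fold change ran from 0.754 to 1.09 (log2 fold change −0.14, SE 0.12, adjusted p = 0.523). Usp18, the protease that removes ISG15 and also damps the interferon receptor, measured 16.2, 17.5, 15.8 and 16.4 CPM in the Vehicle libraries and 17.7, 18.9, 16.1 and 21.9 CPM in Aldara. It did not pass the test (log2 fold change 0.18, SE 0.11, adjusted p = 0.372), and neither did Herc6, the mouse ligase for ISG15, at 7.46 to 11.9 and 10.8 to 14.4 CPM (adjusted p = 0.346). With edgeR 0 of these 3 genes passed, 0 had an unadjusted p under 0.05, and 0 passed with DESeq2.

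The OAS enzymes make oligoadenylates that activate RNase L, and Eif2ak2 encodes PKR, a kinase that halts translation on double-stranded RNA. Eif2ak2 was the 1 gene of these 6 that rose. It measured 40.6, 37.01, 38.2 and 40.1 CPM in the Vehicle libraries and 50.1, 50.4, 46.9 and 54.1 CPM in Aldara, a log2 fold change of 0.37 (SE 0.08, adjusted p = 0.0142). The 4 Vehicle libraries spanned less than 4 CPM and all stood below the Aldara libraries.

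Estimates for the OAS genes, none of which passed, had both signs. Oas3 measured 18.8, 23.3, 17.2 and 21.2 CPM in the Vehicle libraries and 6.45, 11.2, 14.9 and 16.9 CPM in Aldara. The Aldara libraries were lower, but the gap between the groups was 2.06% of the lowest Vehicle library, and the log2 fold change of −0.71 (SE 0.25) did not pass (adjusted p = 0.104, and 0.0358 with DESeq2). Oas2 measured 19.8, 28.2, 40.6 and 31.0 CPM in the Vehicle libraries and 25.4, 42.1, 48.0 and 62.5 CPM in Aldara.

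Oas2 did not pass (log2 fold change 0.57, SE 0.28, adjusted p = 0.24) but did with the replicate block (adjusted p = 0.0207). Oas1a measured 15.2, 16.6, 18.6 and 17.4 CPM in the Vehicle libraries and 13.0, 16.8, 26.7 and 29.4 CPM in Aldara, with 40.9% of its 100-base stretches shared with Oas1g. Its Aldara libraries lay on both sides of the Vehicle range (adjusted p = 0.412). Oasl2, an OAS-like protein with ubiquitin-like domains, measured 35.5, 47.3, 50.8 and 41.9 CPM in the Vehicle libraries and 46.6, 51.9, 53.8 and 64.2 CPM in Aldara (log2 fold change 0.30, SE 0.13, adjusted p = 0.164). Oasl1, which restrains translation of Irf7, spanned 24.3 to 28.7 CPM over the Vehicle libraries and 19.7 to 57.1 CPM over the Aldara libraries. It did not pass (adjusted p = 0.276) except without Aldara replicate 1 (0.0314).

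Among the genes of virus restriction 0 of 5 passed with edgeR, 0 had an unadjusted p under 0.05, and 0 passed with DESeq2. Mx1, a dynamin-like GTPase, measured 6.52, 8.27, 7.54 and 6.97 CPM in the Vehicle libraries and 2.31, 5.22, 5.85 and 7.19 CPM in Aldara. Aldara replicate 1 was the lowest of the 8 libraries and Aldara replicate 4 lay within the Vehicle range (log2 fold change −0.52, SE 0.28, adjusted p = 0.278). Its paralog Mx2, annotated as a polymorphic pseudogene, was at 5.21 to 8.08 CPM in the Vehicle libraries and 7.13 to 9.18 CPM in Aldara (adjusted p = 0.498). Rsad2 encodes viperin, which makes a chain-terminating nucleotide.

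Rsad2 measured 31.1, 29.2, 24.8 and 31.9 CPM in the Vehicle libraries and 16.6, 20.6, 27.5 and 35.5 CPM in Aldara, where 1 library was above and 2 were below the whole Vehicle range (log2 fold change −0.22, SE 0.21, adjusted p = 0.555). Cmpk2, a mitochondrial nucleotide kinase and the neighbour of Rsad2 on chromosome 12, was at 10.8 to 14.4 CPM in the Vehicle libraries and 11.5 to 16.7 CPM in Aldara (adjusted p = 0.699). Bst2 encodes tetherin, which holds budding virus at the cell surface. It measured 82.5, 66.9, 83.9 and 60.4 CPM in the Vehicle libraries and 53.3, 51.1, 74.2 and 67.0 CPM in Aldara, with overlapping groups (log2 fold change −0.26, SE 0.14, adjusted p = 0.298).

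The RNA sensor genes Ddx58 and Ifih1 rose, by a fold of 1.38 and 1.27, whereas the sensor Zbp1 was lower in each Aldara library. Ddx58, which encodes RIG-I, measured 66.4, 76.4, 73.2 and 80.1 CPM in the Vehicle libraries and 100.5, 105, 107 and 97.0 CPM in Aldara. The lowest Aldara library was 21% above the highest Vehicle library (log2 fold change 0.47, SE 0.08, adjusted p = 0.00652). Ifih1, which encodes MDA5, a sensor of long double-stranded RNA, measured 59.2, 67.1, 63.3 and 65.9 CPM in the Vehicle libraries and 78.4, 85.7, 82.3 and 76.8 CPM in Aldara (log2 fold change 0.34, SE 0.08, adjusted p = 0.0186). Both were tight within a group, with a coefficient of variation (CV, the SD as a percentage of the mean) of 4.42% and 4.94% over the Aldara libraries.

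Dhx58 encodes LGP2, a helicase of the same family that regulates both. It was at 15.3 to 18.6 CPM in the Vehicle libraries and 16.9 to 24.5 CPM in Aldara and did not pass (log2 fold change 0.31, SE 0.13, adjusted p = 0.16). Zbp1, a sensor of Z-form nucleic acid linked to necroptosis, measured 19.3, 23.9, 18.8 and 21.5 CPM in the Vehicle libraries and 14.4, 15.1, 17.1 and 18.2 CPM in Aldara. Its groups did not overlap, but the gap was 2.93% and the log2 fold change of −0.37 (SE 0.12) did not pass (adjusted p = 0.075, 0.0474 with DESeq2 and 0.0417 with upper-quartile scaling). Ifi204, a DNA sensor of the AIM2-like family, measured 27.1, 29.8, 36.8 and 31.2 CPM in the Vehicle libraries and 23.2, 36.5, 63.0 and 64.9 CPM in Aldara. Aldara replicate 1 was below all Vehicle libraries and replicates 3 and 4 far above them (log2 fold change 0.59, SE 0.29, adjusted p = 0.246, and 0.0217 without Aldara replicate 1). Of its 100-base stretches 10.7% are shared with other genes.

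Stat2, the signal transducer of the set, had nearly equal group means. It measured 80.0, 91.2, 93.95 and 99.6 CPM in the Vehicle libraries and 93.3, 89.9, 87.2 and 91.9 CPM in Aldara. All 4 Aldara libraries lay inside the Vehicle range, and the interval of the fold change ran from 0.874 to 1.13 (adjusted p = 0.957).

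Parp14, Parp9 and Dtx3l lie close together on chromosome 16 and encode an ADP-ribosyltransferase and a complex of an ADP-ribosyltransferase with a ubiquitin ligase. Parp14 rose, from 70.4, 89.8, 85.4 and 97.95 CPM in Vehicle to 118, 117, 124 and 152 CPM in Aldara (log2 fold change 0.57, SE 0.12, adjusted p = 0.0134). Its lowest Aldara library was 19% above its highest Vehicle library. Parp9 was at 46.4 to 58.0 CPM in the Vehicle libraries and 53.9 to 64.8 CPM in Aldara (adjusted p = 0.174), and Dtx3l at 63.4 to 80.7 and 70.0 to 79.3 CPM (adjusted p = 0.603). These share a bidirectional start, with 458 overlapping exon bases on opposite strands, and the library kit does not mark the strand, so reads from that overlap cannot be assigned.

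Of the 6 remaining members 3 rose. Rtp4, a chaperone of cell surface receptors, had the highest log2 fold change of the 33, 0.69 (SE 0.12, adjusted p = 0.00647). It measured 13.1, 16.4, 18.9 and 18.9 CPM in the Vehicle libraries and 27.4, 26.2, 28.4 and 27.0 CPM in Aldara, so that the Aldara libraries were within 3 CPM of each other and 38.6% or more above every Vehicle library. Ifi44 measured 7.36, 8.55, 8.13 and 8.86 CPM in the Vehicle libraries and 10.8, 12.2, 13.0 and 12.5 CPM in Aldara (log2 fold change 0.56, SE 0.12, adjusted p = 0.0174). Its lowest Aldara library was 21.4% above its highest Vehicle library.

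Xaf1, a binding partner of the apoptosis inhibitor XIAP, measured 12.3, 11.8, 13.2 and 12.3 CPM in the Vehicle libraries and 17.5, 14.5, 16.5 and 21.1 CPM in Aldara (log2 fold change 0.48, SE 0.13, adjusted p = 0.0344). Trim30a, a regulator of NF-kB signalling, was at 28.0 to 36.7 CPM in the Vehicle libraries and 27.5 to 53.8 CPM in Aldara (adjusted p = 0.375). Ifi27l2a, a small hydrophobic protein of mitochondria, was at 24.9 to 54.5 and 29.2 to 74.7 CPM (adjusted p = 0.333). Ifi35 was at 38.2 to 47.3 and 36.6 to 41.8 CPM (adjusted p = 0.705). For these 3 genes the groups overlapped.

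Levels of different genes are set side by side per kilobase (kb) of exon. The length counts all annotated exons of a gene, which can exceed the transcript present, so the order is approximate. In Vehicle the highest were Bst2 (81.3 CPM per kb) and Ifi27l2a (76.1), followed by Ifi35 (24.1), Isg15 (23.6) and Stat2 (15.4). Over the 8 libraries Bst2 ran from 56.6 to 92.9 CPM per kb and Ifi27l2a from 53.8 to 161, so these neighbours overlapped, as did Ifi35 (21.2 to 27.4) and Isg15 (17.8 to 26.2). Ifi27l2a did not overlap Ifi35, and Isg15 did not overlap Stat2 (13.5 to 16.8). The lowest in Vehicle were Herc6 (1.07), Ifi44 (1.34) and Ifit3b (1.57). In Aldara, Ifi27l2a (111.7 CPM per kb) stood above Bst2 (68.0), and Herc6 was again the lowest (1.30).

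The Aldara libraries disagreed with each other over some members and not over others. The CV over the 4 Aldara libraries ran from 2.91% to 44.5% and exceeded 25%, a limit set after the values were seen, for 10 members. These were Oasl1 (44.5%), Ifi204 (43.6%), Mx1 (40.1%), Ifi27l2a (39.6%), Oas3, Oas1a, Oas2, Rsad2, Trim30a and Ifit3b. In 9 of the 10, all but Ifit3b, Aldara replicate 1 was the lowest and replicate 4 the highest library of the group. Over all 33 members this held for 14 (42.4%), beside 11.4% of all genes tested, and among the 9 members past the test for 0.

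Macrophage markers were uneven over the same libraries. Each of the 15 was lowest in Aldara replicate 1 and highest in replicate 3 or 4, with CVs of 17.9% to 51.1%. The order counted above for the members, lowest in replicate 1 and highest in replicate 4, held for 5 of the 15 (33.3%). The mean of these markers lay 0.67, 1.198, 2.02 and 1.93 above the Vehicle mean (log2) in Aldara replicates 1 to 4, and the median member lay 0.03, 0.14, 0.31 and 0.39 above it. In the Vehicle libraries the corresponding marker values were −0.48, 0.02, 0.45 and 0.01, and those of the median member −0.12, 0.00, −0.01 and 0.10. The mean of the epithelial markers stayed between −0.11 and 0.19 in all 8 libraries, while the log2 fold changes of single epithelial markers ran from −0.73 to 0.39. Vehicle replicate 1, lowest in macrophage markers, was also the lowest Vehicle library for 18 of the 33 members, beside 27.4% of all genes tested. Vehicle replicate 3, highest in macrophage markers, was the highest Vehicle library for 10 members, beside 31.5% of all genes tested. It was the lowest for 9, beside 29.7%, and Vehicle replicate 4 was the highest for 13, beside 20.9%. The part of macrophage RNA in the level of any member was not tested.

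**Figure D3:**
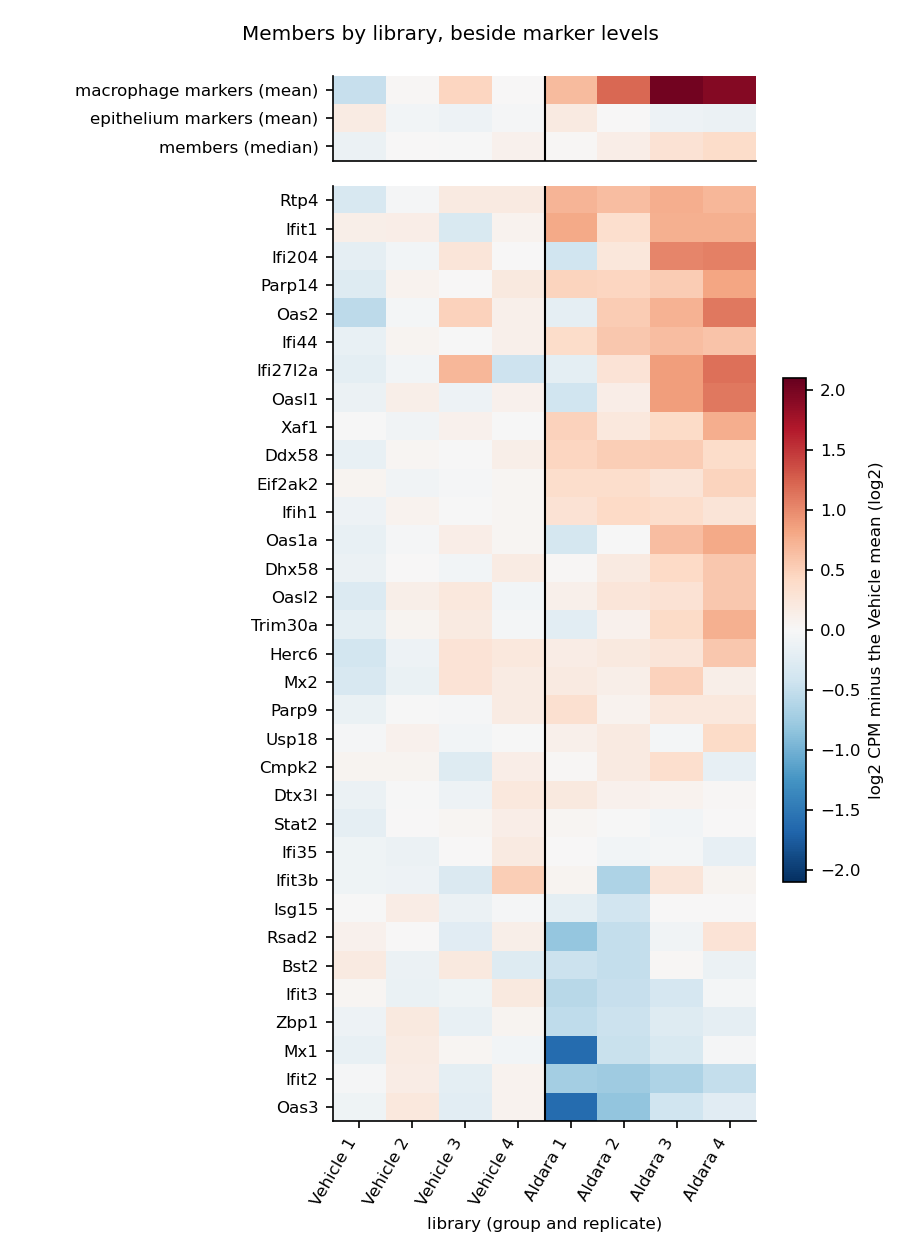
Log2 CPM minus the Vehicle mean (colour, log2 units; 0.1 CPM added) for the 33 members, sorted by log2 fold change, in the 8 libraries, with the mean of the macrophage and epithelial markers and the median member above. Rtp4, Ddx58, Eif2ak2 and Ifih1 are evenly raised over the Aldara libraries. Ifi204, Oasl1, Oas2 and Oas1a lie below the Vehicle mean in Aldara replicate 1 and above it in replicates 3 and 4. The macrophage markers lie above it in every Aldara library, least in replicate 1.

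The rest of the pathway was read from lists of genes. Transcripts of the interferons themselves were near the limit of detection. Of 21 ligand genes of types I, II and III 0 had counts enough to be tested, and 14 had 0 counts in all 8 libraries, 12 of them of type I; a count of 0 over a group allows up to 0.0273 CPM in the Vehicle libraries and 0.0328 CPM in Aldara. Ifnb1 had 4, 0, 11 and 9 counts in Vehicle and 0, 1, 0 and 2 in Aldara. One Vehicle library had none, so the groups overlapped, and the gene did not pass in the fit without the filter (adjusted p = 0.226). Ifng had 1 count in all.

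Of 6 receptor chains 5 rose (83.3%, beside 6.98% of all genes tested) and 0 fell (0 also at an unadjusted p under 0.05 and in DESeq2), Ifnlr1 being the chain that did not pass, with a median log2 fold change of 0.65. Ifnar1 rose from 58.1 ± 1.64 to 87.1 ± 12.8 CPM (mean ± SD, n = 4), a log2 fold change of 0.58 (SE 0.11, edgeR adjusted p = 0.00732), and Ifnar2 from 36.5 ± 1.74 to 53.6 ± 9.1 CPM (adjusted p = 0.0134, and 0.0522 without Aldara replicate 4). The chains of the interferon gamma receptor, Ifngr1 and Ifngr2, rose by 0.72 and 0.74 on the log2 scale, and Il10rb, shared by the receptors of interferon lambda and interleukin 10, by 1.13. Ifnlr1, the chain particular to interferon lambda, measured 75.5 ± 10.7 and 69.7 ± 6.1 CPM (adjusted p = 0.571).

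In the list of 5 genes of JAK-STAT signalling 0 passed with edgeR or DESeq2, with 2 higher and 1 lower at an unadjusted p under 0.05. Jak2, a receptor-bound kinase, measured 154.5 ± 23.7 and 123.4 ± 14.4 CPM (adjusted p = 0.123, and 0.0415 without Vehicle replicate 3). Irf9, the DNA-binding part of ISGF3, measured 81.9 ± 7.68 and 87.4 ± 3.71 CPM (adjusted p = 0.557). Of 6 interferon regulatory factors 3 rose (50%, beside 6.98% of all genes tested) and 1 fell (16.7%, beside 3.86%). Irf5 rose by a log2 fold change of 1.59 (SE 0.29) and Irf8 by one of 1.39 (SE 0.25), and without the filter neither passed (adjusted p = 0.0671 and 0.0628). Irf7, which amplifies interferon production, rose from 59.8 ± 5.57 to 84.4 ± 11.3 CPM (adjusted p = 0.0164, up to 0.0591 without Aldara replicate 3 or 4). Irf1 fell by 0.39 (adjusted p = 0.0458), a call kept without Vehicle replicate 1 and lost without each of the other 7 libraries (up to 0.114).

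Of 11 genes of nucleic acid sensing upstream of interferon 5 rose (45.5%, beside 6.98% of all genes tested). In this list 0 fell (0 also at an unadjusted p under 0.05 and in DESeq2). Only 2 or 3 rose when any library other than Aldara replicate 1 was left out. The level of Tlr7, which imiquimod activates, was 19.01 ± 6.42 CPM with Vehicle and 38.9 ± 18.5 CPM with Aldara. Its adjusted p was 0.118, against 0.00209 in the fit with the replicate block and 0.0332 without Aldara replicate 1. Ikbke, a kinase that activates interferon regulatory factors, rose from 20.1 ± 1.57 to 57.5 ± 17.6 CPM (adjusted p = 0.00306) and Tlr9 by 2.09 on the log2 scale (SE 0.35). Of 9 feedback and ISG15-related enzymes 4 rose (44.4%, beside 6.98% of all genes tested) and 1 fell (11.1%, beside 3.86%). Those risen numbered 2 when replicate 1, 2 or 4 of Vehicle or replicate 3 or 4 of Aldara was left out. Uba7, the activating enzyme for ISG15, rose from 37.4 ± 4.3 to 56.6 ± 3.16 CPM, a log2 fold change of 0.60 (SE 0.10, adjusted p = 0.00507). Socs3, an inhibitor of JAK kinases, fell by 0.71 (SE 0.16, adjusted p = 0.0169, and 0.0518 without Vehicle replicate 2).

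Another 45 interferon-stimulated genes outside the set were listed. Of the 44 tested 11 rose (25%, beside 6.98% of all genes tested) and 2 fell (4.55%, beside 3.86%), and the median log2 fold change was 0.24. The rises numbered 5 without Vehicle replicate 1 or Aldara replicate 4, and 7 when replicate 2 or 4 of Vehicle or replicate 2 or 3 of Aldara was left out, and 1 gene fell without any 1 Vehicle library or without Aldara replicate 1 or 2. Ifitm1, a membrane protein that blocks viral fusion, rose from 4.53 ± 0.565 to 25.1 ± 10.5 CPM, a log2 fold change of 2.46 (SE 0.30, adjusted p = 0.00232). Ifitm2 rose by 0.95 (SE 0.18), Apol9a by 1.67 (SE 0.24) and Znfx1, an RNA helicase, by 0.48 (SE 0.10). Ifi205, a relative of Ifi204, fell from 5.26 ± 1.65 to 2.28 ± 0.42 CPM (adjusted p = 0.0158).

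**Figure D4:**
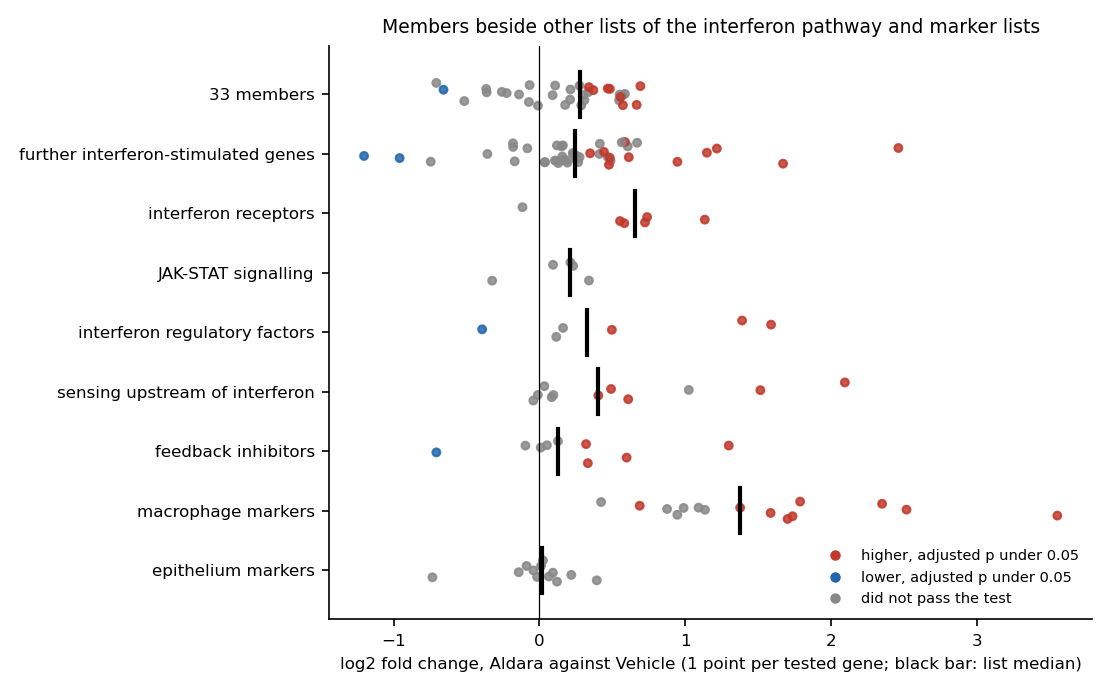
Log2 fold change (x axis, Aldara against Vehicle) of each tested gene of the set, of 6 lists of the interferon pathway and of 2 marker lists, with black bars at list medians. The medians of the 33 members (0.27) and of the further interferon-stimulated genes (0.24) lie below those of the receptors (0.65) and the macrophage markers (1.38), and that of the epithelial markers lies at 0.02.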

How the data were processed

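Low-input RNA-seq libraries were made with a SMARTer Ultra Low Input kit after poly-A enrichment, per the labels' protocols. The authors deposited whole-number read counts per Ensembl gene, not normalised. HISAT2 2.0.5, featureCounts 1.5.0-p3, DESeq2 and build mm10 are named in the submitters' processing notes, with no counting options stated there. Symbols, exon lengths and coordinates came from GENCODE M21 (52073 of 56748 identifiers matched), and promoter windows from RefSeq GRCm38.p6.

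The deposited counts were filtered (filterByExpr, 16780 genes kept), scaled (TMM) and tested with the robust quasi-likelihood F test of edgeR 4.0.16 in R 4.3.3. Adjusted p-values are Benjamini-Hochberg over all tested genes, with a threshold of 0.05. The SE is the log2 fold change over the root of F, and intervals are 95%. CPM of single libraries are given for members past the test, for the smallest p of each role and for 11 fixed genes. Up to 4 genes of smallest p were taken from each pathway list, Adgre1 always, and other genes named were chosen after their values were seen. Members and lists were chosen with earlier results of these data known.

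The fit was tested on simulated counts with 200 of 16780 genes changed. The closest libraries of a group had a chi-square per degree of freedom of 18.2, so 0 pairs were treated as duplicates. Libraries with the same replicate number deviated together (correlations 0.108 to 0.228 across genes, with 8 of 8 libraries closest to their own number). The labels state no block, so the main fit has none. A fit with a replicate block, which takes these numbers as pairs, stands beside some of the results it changes. Alternatives were RLE, upper-quartile and no scaling factors, no filter, DESeq2 1.42.0, the replicate block and leaving out each library. Some genes of the lists are not reported here by name.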

Additional observations from a re-analysis of the deposited data

Results flagged for a closer look

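Among the 66 groups of 4 libraries (33 genes in both groups) 2 held a library far from the other 3, both for Ifit1; chance alone sets about 1 in 20 such groups apart. In Vehicle replicate 3 Ifit1 measured 10.0 CPM, where the other Vehicle libraries lay between 13.2 and 13.8 CPM. In Aldara replicate 2 it measured 16.0 CPM, where the others lay between 21.1 and 21.9 CPM. The gap to the nearest library took 0.834 and 0.868 of the group's range. Neither library decided the call on Ifit1, which passed without each of the 8 libraries in turn (highest adjusted p = 0.0478).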

How the results depend on the processing

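No member reversed with a call under any alternative, and for 31 of the 33 the sign of the estimate was the same in all 14 alternatives, the exceptions being Ifit3b and Stat2. The count of members that rose was 7 to 9 under the alternatives that kept all libraries and 5 to 9 with 1 library left out. Members that fell numbered 2 with upper-quartile factors (Ifit2 and Zbp1) and 3 with DESeq2 (Ifit2, Oas3 and Zbp1), and 1 without any single library. The median of the members ran from 0.17 to 0.32 with 1 library left out. Over all genes the falls numbered 990 with upper-quartile factors, 1154 with DESeq2 and 1030 with the replicate block, and with 1 library left out 629 to 1405 genes rose and 323 to 664 fell. Among pathway lists, 1 signalling gene rose with the replicate block, 1 interferon regulatory factor rose without the filter and 0 fell on total counts alone, 2 feedback genes rose with upper-quartile factors and 1 without the filter, and 4 further interferon-stimulated genes fell with DESeq2. With 1 library left out the ranges were 0 to 1 risen and 0 to 1 fallen signalling genes, 0 to 1 fallen regulatory factors, 2 to 6 risen sensing genes, 2 to 3 risen and 0 to 1 fallen feedback genes, and 5 to 13 risen and 1 to 2 fallen further genes. The cause of these differences was not tested, though a fit without 1 library rests on fewer samples. The replicate block changed the call of 1 member, Oas2 (log2 fold change 0.55, adjusted p = 0.0207). With the block 6 sensing genes rose, and of the further interferon-stimulated genes 14 rose and 3 fell. Depth did not limit the detection of the members. The interferon ligands, and some genes of the other lists, had too few counts to be tested.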
